A study of Rattus norvegicus with 12 samples.

Results

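The genes examined are 9 hepatic transporters of the rat, whose proteins move drugs, bile pigments, bile acids, phospholipid and other organic anions across the hepatocyte membrane: Slco1a1, Slco1a4, Slco1b2, Slc22a7, Abcb1a, Abcb4, Abcc2, Abcg2 and Abcc3. They were found by name among the probes of an Agilent whole-genome rat array, older Slco names included. The search returned 11 probes of 41012, and all 9 genes remained among the 24316 genes that passed the filter on dim probes. Abcc3 and Slco1a4 have 2 probes each and the other genes 1 each.

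The livers came from adrenalectomized Sprague-Dawley rats aged 8 to 10 weeks, so every animal in every group lacked its own adrenal steroids. Males and females, the females in diestrus 1, received dexamethasone, a synthetic glucocorticoid, at 1 mg/kg intraperitoneally, or the vehicle, phosphate-buffered saline, and liver was collected 6 h later. The 4 groups are male dexamethasone, male vehicle, female dexamethasone and female vehicle. Each group has 3 arrays, each array holds pooled RNA of 3 animals, and 9 animals stand behind each group, so p-values rest on the spread between pools.

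Hepatocytes take organic anions up from blood across the sinusoidal membrane through organic anion transporting polypeptides, the Slco family, and through the organic anion transporter OAT2, encoded by Slc22a7. Inside the cell many of these compounds are oxidized and conjugated. ATP-binding cassette pumps then move them across the canalicular membrane into bile, or back into blood through Abcc3. In rodents several of these genes are known to differ between the sexes and to respond to the nuclear receptors PXR and CAR, which sense drugs and steroids.

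The Slco1 genes lie together on rat chromosome 4, and Slco1a1 and Slco1a4 are close relatives. The promoters of the 3 Slco members are shown because Slco1a4 passed tests described further on and its relative Slco1a1 passed none. Slco1b2 passed for dexamethasone in males only. Whether the relatives differ from each other was not tested. Sequences are from RefSeq, build GRCr8, and read 5′ to 3′ on the gene's strand towards the transcript start. Capitals mark hexamers that a search found on either strand: AGAACA, a glucocorticoid receptor hexamer, GTTAAT, part of the HNF1 site, and AGGTCA and AGTTCA, core hexamers of nuclear receptor sites.
Slco1a1, minus strand, chr4:176682028-176682242: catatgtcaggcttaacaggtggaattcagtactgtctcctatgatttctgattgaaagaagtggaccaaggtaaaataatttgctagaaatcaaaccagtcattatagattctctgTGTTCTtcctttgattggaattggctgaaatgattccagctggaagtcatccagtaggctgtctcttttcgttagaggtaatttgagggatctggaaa
Slco1a4, minus strand, chr4:176495847-176496096: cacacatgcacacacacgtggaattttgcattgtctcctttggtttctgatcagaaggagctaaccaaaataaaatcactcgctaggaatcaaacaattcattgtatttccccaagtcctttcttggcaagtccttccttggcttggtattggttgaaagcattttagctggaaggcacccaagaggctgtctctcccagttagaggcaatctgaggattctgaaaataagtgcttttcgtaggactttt
Slco1b2, plus strand, chr4:176282334-176282576: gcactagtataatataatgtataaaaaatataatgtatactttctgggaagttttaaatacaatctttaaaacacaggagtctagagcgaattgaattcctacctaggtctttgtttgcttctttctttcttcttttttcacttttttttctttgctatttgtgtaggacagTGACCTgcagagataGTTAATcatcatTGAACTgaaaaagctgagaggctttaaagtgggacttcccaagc

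Over the 250 bases before the start, the Slco1a1 and Slco1a4 promoters aligned with 66.4% identical columns, against 48.8% in the next most alike of the member pairs. AGAACA stood in Slco1a1, 133 bases before the start as its reverse TGTTCT, and in none of the other 7 members with a sequence, against 17.5% of all 33469 promoters. GTTAAT stood in 2 of 8 members, Slco1b2 and Abcc2, against 6.45% of all promoters. AGGTCA stood in those same 2 members, against 14.1%, and AGTTCA in Slco1b2, Slc22a7 and Abcc2, against 12.2%. The letters CCAAT, also searched on both strands and left in lower case, stood in 4 of 8 members against 34% of all promoters. None of the motifs overlapped another in the windows shown.

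Levels are given as multiples of the 75th percentile of each array's spots, which sets arrays but not different probes on a common scale. Differences are on the log2 scale with their standard error, and a gene passed the test where its limma p, adjusted over all 24316 genes, was under 0.05. The plot of levels on each array shows the 9 genes.

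**Figure D1:**
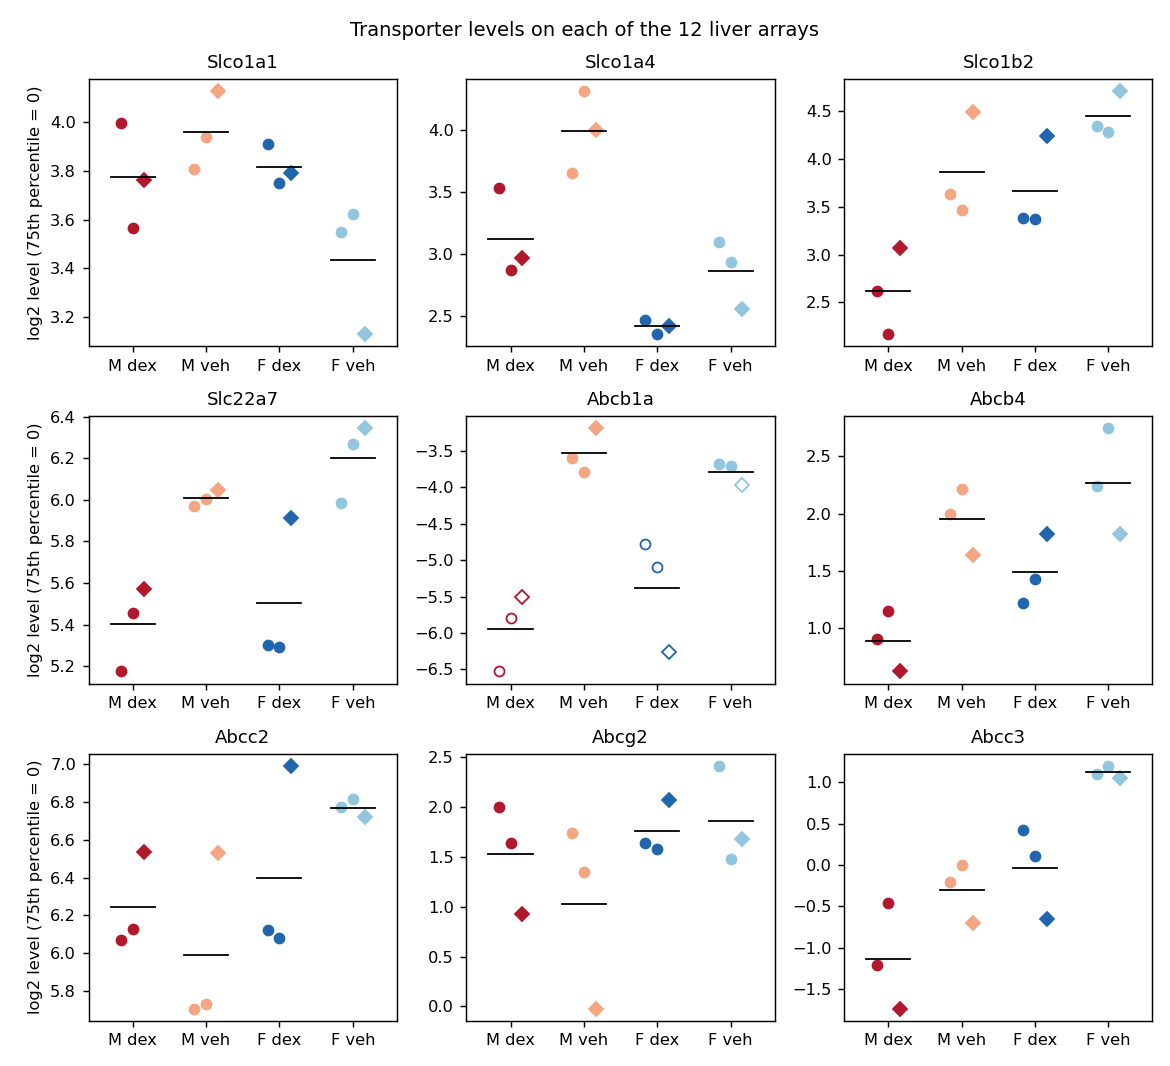
Log2 level of each transporter (vertical axis, 0 is the array's 75th percentile) on each of the 12 arrays, by group (M and F, males and females; dex, dexamethasone; veh, vehicle). Points are arrays, diamonds are the arrays of the slide that held replicate 3 of every group, open points were not well above background, and lines are group means. Abcb1a is open on all 6 dexamethasone arrays, and Abcc3 is highest in vehicle-treated females.

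Dexamethasone lowered 4 of the 9 transporters in males and 3 of 9 in females. None of the 9 rose in either sex in limma, with or without adjustment at 0.05. In males the uptake carriers Slco1a4 and Slco1b2 and the canalicular pumps Abcb1a and Abcb4 fell. In females Slc22a7, Abcb1a and Abcc3 fell. Abcb1a is in both counts, and in the counts free of overlap below, although its spot was not well above background on any dexamethasone array. Its calls were lost with another background correction, as given further on. The background is large: 20.1% of all genes passed in males, 9.34% upward and 10.8% downward, and 24.3% passed in females, 11.7% upward and 12.6% downward. The median difference of the 9 genes was -0.83 in males and -0.70 in females, against 0.01 and -0.08 over all genes tested. The dexamethasone and vehicle arrays did not overlap for 5 of 9 members in males and 7 of 9 in females, against 35.1% and 43.1% of all genes. These counts take separation in either direction. Slco1a1 is among the 7 in females with dexamethasone above vehicle. Abcb4 is also among them, with 3.53 on its highest dexamethasone array against 3.54 on its lowest vehicle array.

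**Figure D2:**
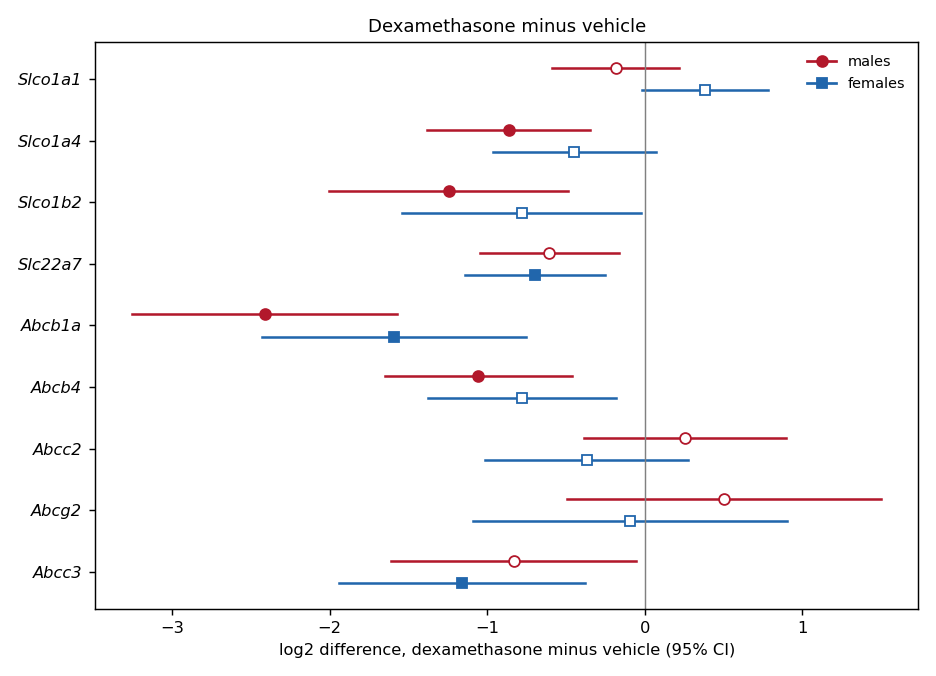
Log2 difference, dexamethasone minus vehicle (horizontal axis), of each transporter in males (circles) and females (squares), with 95% confidence intervals from limma. Filled points passed the adjusted test. In males 4 filled points and in females 3 lie to the left of 0, and Slco1a1, Abcc2 and Abcg2 have intervals that include 0 in both sexes. The Abcb1a points are fitted values partly below background.

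Among the uptake carriers, Slco1b2, the liver-specific organic anion transporting polypeptide that takes up bilirubin, bile acids and statins, had levels of 6.14, 4.50 and 8.42 on the male dexamethasone arrays and 12.4, 11.1 and 22.6 on the male vehicle arrays. Every dexamethasone array was below every vehicle array. The difference was -1.25 ± 0.34 (adjusted p = 0.0270). It was -1.42 between the 2 male arrays of the slide that held all groups and -0.85 on the other slide with both male groups. In females Slco1b2 had 10.4, 10.3 and 18.9 after dexamethasone and 20.3, 19.5 and 26.2 after vehicle. The groups were again free of overlap, narrowly so for the third pool, and the difference of -0.78 ± 0.34 did not pass (adjusted p = 0.124, interval -1.54 to -0.02).

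Slco1a4, also known as Oatp2, carries cardiac glycosides, bile acids and steroid conjugates and is a known PXR target in rodents. The dimmer of its probes stood for the gene, because spots of the brighter probe carried an outlier flag on 2 of the 3 male vehicle arrays. On the dimmer probe Slco1a4 had 11.6, 7.33 and 7.82 in males after dexamethasone and 12.6, 19.9 and 16.0 after vehicle. The highest dexamethasone array came close to the lowest vehicle array without overlap, and the difference was -0.86 ± 0.23 (adjusted p = 0.0249). In females it had 5.55, 5.13 and 5.38 after dexamethasone and 8.58, 7.68 and 5.90 after vehicle, a difference of -0.45 ± 0.23 that did not pass (adjusted p = 0.189).

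The brighter Slco1a4 probe, looked at after its values were seen, gave 15.0, 11.7 and 14.4 in females after dexamethasone and 31.3, 34.0 and 25.0 after vehicle, with no flagged spot among them. With the flagged spots of the male vehicle arrays kept, its difference in females was -1.13 ± 0.21 (adjusted p = 0.00311 over all probes) and in males -0.85 ± 0.21 (adjusted p = 0.0153). Both probes thus fell in males, and in females the brighter passed while the dimmer did not. The difference between the sexes had opposite signs on the probes, 0.42 on the dimmer and -0.29 on the brighter, and passed on neither (adjusted p = 0.674 and 0.738).

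**Figure D3:**
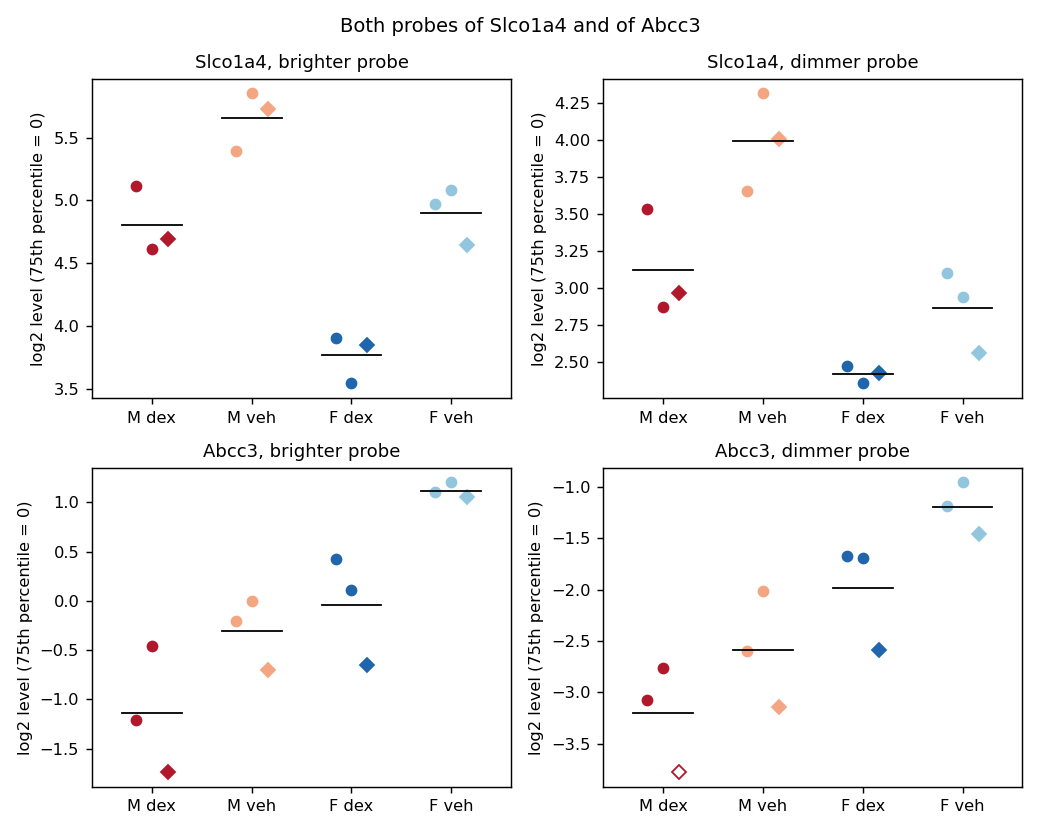
Log2 level (vertical axis, 0 is the array's 75th percentile) of both probes of Slco1a4 and of Abcc3 on each array, by group, with lines at group means and flagged spots kept. Diamonds are the arrays of the slide with replicate 3 of every group, and the open point was not well above background. The female dexamethasone and vehicle arrays lie further apart on the brighter Slco1a4 probe, -1.13, than on the dimmer, -0.45.

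Slco1a1, or Oatp1, carries sulfobromophthalein and steroid sulfates. It had 16.0, 11.8 and 13.6 in males after dexamethasone and 14.0, 15.3 and 17.5 after vehicle, which overlap. In females it had 15.0, 13.4 and 13.8 after dexamethasone and 11.7, 12.3 and 8.75 after vehicle, free of overlap and the only member whose female groups were ordered with dexamethasone above. The differences were -0.18 ± 0.18 in males (adjusted p = 0.562) and 0.38 ± 0.18 in females (adjusted p = 0.153), and neither passed.

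Slc22a7, the OAT2 carrier of cyclic nucleotides, prostaglandins and other organic anions, had 39.5, 39.3 and 60.1 in females after dexamethasone and 63.4, 77.1 and 81.2 after vehicle. The groups did not overlap, although the third dexamethasone pool stood near the lowest vehicle pool. The difference was -0.70 ± 0.20 (adjusted p = 0.0284). It was -0.43 within the slide that held all groups, and with the slide as a fixed term it was -0.37 and did not pass (adjusted p = 0.304). In males Slc22a7 had 36.2, 43.9 and 47.6 after dexamethasone and 62.8, 64.2 and 66.2 after vehicle. These groups lay well apart, and the difference of -0.61 ± 0.20 just missed the threshold (adjusted p = 0.0565), passing with the slide as a fixed term (adjusted p = 0.0350).

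Of the canalicular pumps, Abcb1a encodes a P-glycoprotein, the multidrug pump that is also found in lymphocytes and capillary endothelium. In males it had 0.0108, 0.0180 and 0.0220 after dexamethasone and 0.0822, 0.0720 and 0.109 after vehicle. In females it had 0.0364, 0.0292 and 0.0130 after dexamethasone and 0.0781, 0.0763 and 0.0637 after vehicle. The spot was not well above background on any of the 6 dexamethasone arrays, and it was above on 3 male and 2 female vehicle arrays.

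The Abcb1a probe passed the filter on dim probes through the vehicle arrays only, so its level after dexamethasone has only a bound. With the main background subtraction, Abcb1a was set against the dimmest signal well above background on each array. So taken, it was at least 1.58-fold lower after dexamethasone in males and at least 1.53-fold lower in females. The female vehicle mean includes replicate 3, where the spot was not well above background. The adjusted p of limma belongs to the fitted difference and not to the bound. That difference was -2.41 ± 0.38 in males (log2 means of -5.94 and -3.53, adjusted p = 0.00141) and -1.59 ± 0.38 in females (log2 means of -5.38 and -3.79, adjusted p = 0.0122), and it lies partly below background. With another background correction, normexp, the differences were -0.24 and -0.42 and did not pass (adjusted p = 0.549 and 0.156). These are smaller in size than the bounds, 0.66 and 0.62 on the log2 scale. The bounds thus hold only for the main background subtraction. The near relative Abcb1b had -0.81 ± 0.33 in males (adjusted p = 0.123) and fell by 1.18 ± 0.33 in females (adjusted p = 0.0266).

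Markers of other liver cell types changed unevenly with dexamethasone. All 5 lymphocyte markers that passed the filter fell in both sexes (Cd3g, Cd8a, Cd79b, Gzma and Klrb1a), with summed levels of 0.741 to 0.886 in males after dexamethasone and 2.68 to 3.11 after vehicle, and 0.678 to 0.806 after dexamethasone and 2.53 to 4.29 after vehicle in females. Of the same list Cd3e did not pass the filter. Of 5 endothelial markers Lyve1 rose in both sexes, Kdr fell in females by 2.29, and their summed levels were 23.3 to 31.5 in males after dexamethasone and 34.9 to 48.6 after vehicle, and 10.7 to 25.3 and 42.7 to 69.7 in females. Both measured neutrophil markers, S100a8 and S100a9, fell in both sexes, with summed levels of 0.0731 to 0.124 in males after dexamethasone and 0.430 to 0.715 after vehicle, and 0.0850 to 0.129 after dexamethasone and 0.459 to 2.43 after vehicle in females. Of 8 bile duct markers 1 fell in males and 3 in females, with summed levels of 2.13 to 3.04 in males after dexamethasone and 4.05 to 5.27 after vehicle, and 1.67 to 2.29 after dexamethasone and 2.70 to 3.67 after vehicle in females. Of 7 Kupffer cell markers 1 fell in each sex, and of 6 stellate cell markers 2 fell in each sex. Of 8 hepatocyte markers 1 rose in females and none passed in males. The part of these cell types in the fall of any transporter was not tested. In whole liver RNA, fewer cells of a type and less RNA per cell cannot be told apart.

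Abcb4, the phospholipid floppase of the bile canaliculus, had 1.87, 2.22 and 1.54 in males after dexamethasone and 3.99, 4.64 and 3.12 after vehicle. The groups were clearly apart and the difference was -1.06 ± 0.27 (adjusted p = 0.0188). It was -1.01 and -1.31 within the 2 slides that held both male groups. In females Abcb4 had 2.34, 2.69 and 3.53 after dexamethasone and 4.73, 6.69 and 3.54 after vehicle. The difference of -0.78 ± 0.27 did not pass (adjusted p = 0.0590), and on the slide that held all groups it was -0.00.

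Abcc2, the pump for bilirubin glucuronides and glutathione conjugates, had 67.2, 69.8 and 92.6 in males after dexamethasone and 52.3, 53.2 and 92.3 after vehicle. In females it had 69.7, 67.8 and 127 after dexamethasone and 109, 112 and 105 after vehicle. The third pool was the highest of its group in 3 of the 4 groups, the groups overlapped, and neither difference passed (0.25 ± 0.29, adjusted p = 0.627, in males and -0.37 ± 0.29, adjusted p = 0.383, in females). Abcg2, which exports sulfated steroids and drugs, had 4.01, 3.12 and 1.90 in males after dexamethasone and 3.34, 2.55 and 0.984 after vehicle. In females it had 3.12, 2.995 and 4.19 after dexamethasone and 5.33, 2.79 and 3.21 after vehicle. Its groups overlapped in both sexes, with differences of 0.50 ± 0.45 in males (interval -0.50 to 1.5) and -0.10 ± 0.45 in females (interval -1.09 to 0.90). The intervals thus include a rise of over 1 in males and a fall of over 1 in females.

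Abcc3, which returns glucuronides from the hepatocyte to blood, had 1.34, 1.08 and 0.637 in females after dexamethasone and 2.15, 2.30 and 2.07 after vehicle. The vehicle arrays were tight and all above the dexamethasone arrays, and the difference was -1.16 ± 0.35 (adjusted p = 0.0363). In males it had 0.432, 0.728 and 0.300 after dexamethasone and 0.866, 1.00 and 0.616 after vehicle, which overlap, and the difference of -0.83 ± 0.35 did not pass (adjusted p = 0.130). The dimmer Abcc3 probe gave -0.79 ± 0.36 in females (adjusted p = 0.145 over probes) and -0.62 ± 0.36 in males (adjusted p = 0.289). With both probes averaged the female call was lost (-0.97, adjusted p = 0.0687), as with the slide as a fixed term (-1.33, adjusted p = 0.0856).

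Leaving out single arrays raised the limma adjusted p of 5 of the 7 calls for dexamethasone past the threshold. It reached 0.0901 for Slco1a4, 0.0978 for Slco1b2 and 0.0702 for Abcb4 in males, and 0.110 for Slc22a7 and 0.112 for Abcc3 in females. For Abcb1a it reached 0.00733 in males and 0.0412 in females, but both calls rest on values below background and were lost with normexp. No estimate turned its sign among these 5 when an array was left out.

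Whether dexamethasone acted differently in the sexes was tested as the female minus the male effect. None of the 9 genes passed in limma, while 0.0288% of all genes did, 7 of 24316. Slco1a1 had the lowest p, 0.0509 before and 0.501 after adjustment, with an estimate of 0.57 ± 0.26. The other estimates ran between -0.62 for Abcc2 and 0.82 for Abcb1a, each with an interval that includes 0. A gene that passed in males and not in females, such as Slco1b2, is therefore not shown to differ between the sexes.

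Between the sexes, Slco1a4 was lower in females than in males after vehicle, and was the only one of the 9 genes to pass there, where 1.71% of all genes passed and 0.966% downward. On the dimmer probe the female vehicle arrays had 8.58, 7.68 and 5.90 and the male vehicle arrays 12.6, 19.9 and 16.0, a difference of -1.12 ± 0.23 (adjusted p = 0.0419). On the slide that held all groups it was -1.44. The call was lost in limma when any of 10 of the 12 arrays was left out (adjusted p up to 0.153), and with the slide as a fixed term (-1.14, adjusted p = 0.103). The brighter probe, with flagged spots kept, gave -0.75 ± 0.21 (adjusted p = 0.135).

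Female and male arrays did not overlap after vehicle for 4 of the 9 genes, Slco1a1, Slco1a4, Abcc2 and Abcc3, against 15.6% of all genes. Abcc3 was at 2.15, 2.30 and 2.07 in females and 0.866, 1.00 and 0.616 in males, and its difference of 1.42 ± 0.35 missed the threshold (adjusted p = 0.0919). Its dimmer probe gave 1.39 ± 0.36. Abcc2 differed by 0.78 ± 0.29 (adjusted p = 0.348) and Slco1a1 by -0.52 ± 0.18 (adjusted p = 0.294).

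After dexamethasone none of the 9 genes passed between the sexes in limma, while 2.31% of all genes did. Without adjustment 4 of the 9 had a p under 0.05, against 15.6% of all genes. Females and males did not overlap for Slco1a4, Slco1b2 and Abcb4, against 23.1% of all genes. Slco1b2 had 10.4, 10.3 and 18.9 in females and 6.14, 4.50 and 8.42 in males, a difference of 1.04 ± 0.34 (adjusted p = 0.172). Abcc3 differed by 1.10 ± 0.35 (adjusted p = 0.161) and Slco1a4 by -0.71 ± 0.23 (adjusted p = 0.174). On the brighter Slco1a4 probe the difference was -1.04 ± 0.21 and passed (adjusted p = 0.0273 over probes, flagged spots kept).

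**Figure D4:**
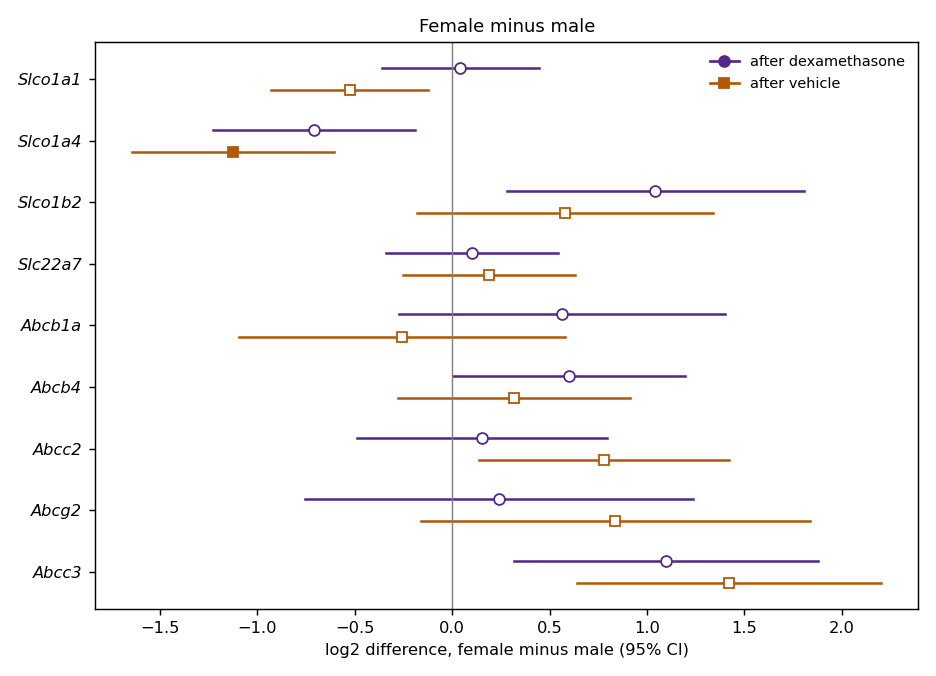
Log2 difference, female minus male (horizontal axis), of each transporter after dexamethasone (circles) and after vehicle (squares), with 95% confidence intervals from limma. The filled square, Slco1a4 after vehicle at -1.12, is the only point that passed the adjusted test, and Abcc3 lies at 1.10 and 1.42.

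By mean level Slco1a4 was lowest in female dexamethasone and highest in male vehicle, and the arrays of male dexamethasone and female vehicle, in between, overlapped. Slco1b2 was lowest in male dexamethasone, which stood apart, followed upward by female dexamethasone, male vehicle and female vehicle, each overlapping the next. Abcc3 was lowest in male dexamethasone, followed by male vehicle and female dexamethasone, each overlapping the next, and was highest in female vehicle, which stood apart. Slco1a1 was lowest in female vehicle, which overlapped male dexamethasone but not female dexamethasone or male vehicle. For Abcb4 and Slc22a7 the female group mean was above the male group mean after either injection, and the vehicle groups of the sexes overlapped.

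The other hepatic transporters gave a mixed picture. Of 26 measured of 31 listed, 1 rose and 8 fell in males, and 2 rose and 5 fell in females, with medians of -0.62 and -0.31. Slc29a1, the equilibrative nucleoside transporter ENT1, fell by 2.01 in males and by 1.90 in females, and Slco2a1, the prostaglandin transporter, fell by 1.56 and by 1.25. In males Slco2b1, a further uptake carrier of steroid sulfates, fell by 1.20 and Slc10a1, the sodium-dependent bile acid uptake carrier, by 0.61, while Slc28a2, a concentrative nucleoside transporter, rose by 1.48 ± 0.38.

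The bile salt export pump Abcb11 rose by 1.29 ± 0.33 in females (adjusted p = 0.0181), with levels of 39.9 to 45.6 after dexamethasone and 10.1 to 22.8 after vehicle. In males Abcb11 had 24.4 to 37.2 after dexamethasone and 12.8 to 22.3 after vehicle (adjusted p = 0.234). Slc22a6, a carrier best known from kidney, passed upward in females (limma adjusted p of the fitted difference = 0.0230). It was well above background on 2 of 3 dexamethasone arrays and on no vehicle array. As a bound it was only at least 1.12-fold higher after dexamethasone. That bound's dexamethasone mean includes the array where the spot was not well above background. Slc22a8, the OAT3 carrier, was at least 30.5-fold lower in females than in males after vehicle and at least 22.9-fold lower after dexamethasone. The limma adjusted p of the fitted difference of Slc22a8 was 0.000103 after vehicle and 0.000518 after dexamethasone. It was not well above background on any of the 6 female arrays and was the only one of the 26 to pass between the sexes in limma.

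**Figure D5:**
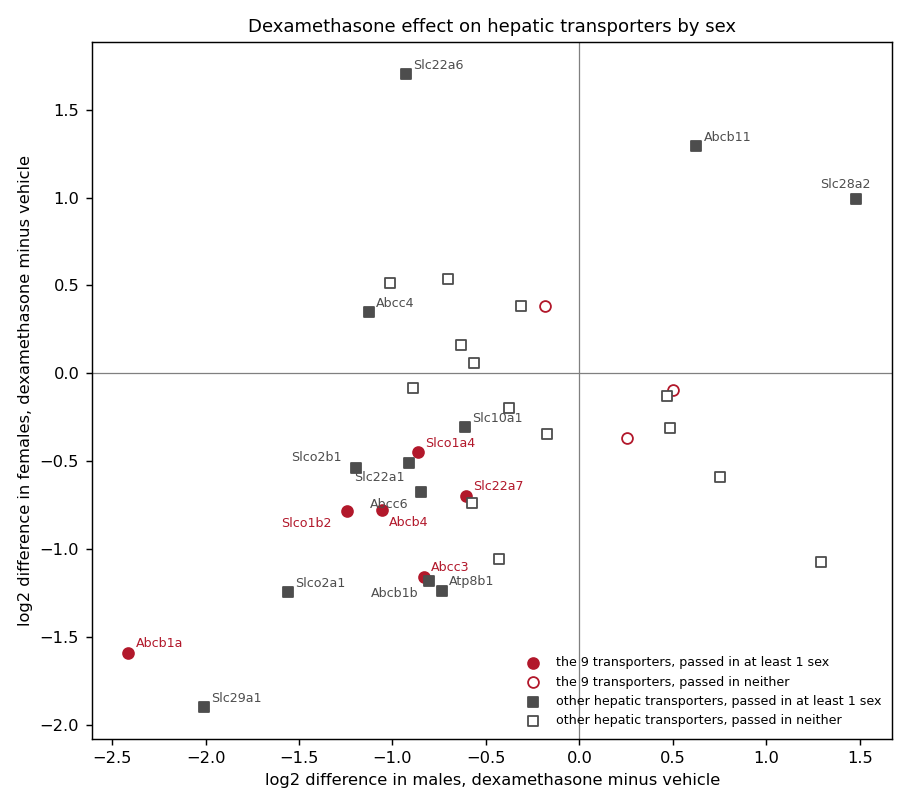
Log2 difference, dexamethasone minus vehicle, in males (horizontal axis) and in females (vertical axis), for the 9 transporters (circles) and 26 other hepatic transporters (squares). Filled symbols passed the adjusted test in at least 1 sex. Slc29a1 and Abcb1a lie to the lower left, Abcb1a at fitted values partly below background, and Abcb11 and Slc28a2 lie to the upper right.

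Of 29 regulators and scaffold proteins, 4 rose and 6 fell in males, and 6 rose and 4 fell in females. Nr1i2, which encodes PXR, rose by 0.88 ± 0.19 in males and 0.92 ± 0.19 in females. Nr1i3, which encodes CAR, fell by 1.17 ± 0.26 in males, had -0.74 ± 0.26 in females (adjusted p = 0.0589), and was lower in females than in males by 1.60 ± 0.26 after vehicle. Nr3c1, the glucocorticoid receptor, fell by 1.30 in males and by 1.14 in females. Foxa2, a hepatocyte transcription factor, fell by 2.67 in males and by 2.08 in females, and Arnt, the partner of the aryl hydrocarbon receptor, rose by 4.21 and 3.54, estimates that include vehicle arrays below background (2 of 3 were well above it in males and 1 of 3 in females).

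Cux2, a female-biased repressor, fell by 3.46 in females, and in males it was at least 2.32-fold lower after dexamethasone (limma adjusted p of the fitted difference = 0.0171), where no dexamethasone array was well above background. Other regulators passed in a single sex. Onecut1, or HNF6, fell by 2.14 in males, and so did Nfe2l2, or NRF2, the oxidative stress factor, by 1.97. Bcl6, a male-biased repressor, rose by 2.67 in females and had 1.63 in males (adjusted p = 0.0925). After vehicle 2 of the 29 were higher in females and 1 lower, and after dexamethasone 4 were higher and 2 lower. Prlr, the prolactin receptor, was higher in females by 7.31 ± 0.99 after vehicle and 7.69 ± 0.99 after dexamethasone, where 2 of 3 male arrays were well above background.

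Of 22 measured conjugating and oxidizing enzymes, 3 rose and 3 fell in males, and 5 rose and 2 fell in females. Ces2c, a carboxylesterase, rose by 6.23 in males and 6.77 in females (over 2 dexamethasone arrays, the other spot being flagged), and Por, the electron donor of cytochromes P450, by 2.33 and 2.92. Sult2a1, a hydroxysteroid sulfotransferase, fell by 3.49 in males and had -0.83 in females (adjusted p = 0.309), and Sult1a1, a phenol sulfotransferase, rose by 1.44 in males and 2.68 in females. Between the sexes after vehicle 1 of the 22 was higher in females and 6 were lower. Sult1e1, the estrogen sulfotransferase, was at least 129-fold lower in females there, and at least 51.1-fold lower after dexamethasone.

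The genes whose pattern over the 12 arrays was most like that of a called member were found by the root-mean-square difference of log2 levels, each centred on its own mean, among 11475 genes with a symbol. On its dimmer probe, which stood for the gene, Slco1a4 was nearest to Slco1a6, a relative in the same gene cluster, at 0.229, and to Nt5e at 0.234. The brighter Slco1a4 probe was not compared. Abcb4 was nearest to Slc38a3, a glutamine transporter, at 0.179, and Slc22a7 to Fdxr at 0.0913. Slco1b2 lay nearest to Adra1b, the alpha-1B adrenergic receptor, at 0.254. Abcb1a lay nearest to the chemokine gene Ccl4 at 0.392, and Abcc3 to Sfxn4 at 0.402, both distances larger than the others. The distance depends on a member's own spread over the arrays, so it does not rank likeness between members. That spread was 1.10 for Abcb1a and 0.891 for Abcc3, and ran from 0.382 for Slc22a7 to 0.755 for Slco1b2 among the others. For Abcb1a it includes the values below background after dexamethasone.

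Some facts bear on all of these results. The hepatocyte markers, 8 of 8 measured, had summed levels of 4616 to 6164 in males after dexamethasone and 2986 to 5897 after vehicle, and 6118 to 6549 and 4397 to 6019 in females, and 1 of the 8, Cps1, rose in females. The arrays were printed on 5 slides, and the slide with replicate 3 of every group was dimmer, with 53.0% to 61.8% of spots well above background against 62.7% to 69.7% elsewhere. The consensus correlation of arrays on the same slide was 0.512. Female dexamethasone replicates 1 and 2 had a slide to themselves, so in females the dimmer slide alone compares dexamethasone with vehicle directly. The same limit holds between the sexes. Only the dimmer slide held both sexes after vehicle, and only it held both after dexamethasone.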

How the data were processed

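The deposited scanner files hold spot intensity values that the authors extracted with Agilent Feature Extraction 9.1 from single-colour Cy3 arrays of 500 ng pooled RNA, per the labels' protocols and the submitters' processing notes; the file headers give version 9.1.3.1. The deposited value table holds log10 values whose scaling is not given in the sources used here, and it served as an alternative only.

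The background-subtracted, detrended signal was taken to log2 and each array's 75th percentile was subtracted. Control spots (1639) and 211 outlier-flagged spots were left out, and no spot was saturated. Probes well above background on at least 3 arrays, with at least 2 usable arrays in each group, were kept, and the brightest stood for its gene. Of 41012 probes, 19211 were named through accessions or symbols of the GRCr8 RefSeq table, and the rest kept the file's name. The number of arrays limits the precision.

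A mean for each of 4 groups was fitted with limma 3.58.1 in R 4.3.3 (statmod 1.5.0, data.table in version 1.17.8), with 8 residual and 2.39 prior degrees of freedom. P-values were adjusted by Benjamini-Hochberg over 24316 genes within each of 5 contrasts. The pipeline was tested on simulated data. Where no array of a group was well above background, the fold is a bound that holds for this background subtraction. It is the bright group's mean over the dim group's, each dim array taken at the higher of its own signal and the lowest signal well above background. The members, the lists and the naming rule were chosen with earlier results of these data known. The rule names every member, up to 4 called genes of each list per treatment contrast, up to 3 per other contrast, list genes set beside a member by role, and the 2 genes nearest to each called member. Alternatives covered scaling, background, source, filter, probe choice, slide, scan day, replicate number, flagged spots, the arrays fitted and each array left out. Scan day, flagged spots and the slide with 2 male arrays were added after seeing the data. Promoters matched 8 of 9 members, Abcc3 not among them; bases inside the annotated gene span were not printed, 35 for Slco1a1 and 7 for Slco1b2. Sequence alignment used Biopython and figures matplotlib.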

Additional observations from a re-analysis of the deposited data

How the results depend on the processing

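The Abcb1a calls were lost with normexp, as given above, and the 3-array groups leave the other calls close to the threshold. In males 4 members passed, 2 when the arrays of the 2 groups were fitted alone, 6 with the slide as a random block and 2 to 5 with an array left out. All genes passing numbered 3305 with the 2 groups alone and 7753 with the slide as a random block, against 4898, and 3680 to 5194 with an array left out. In females 3 passed, 5 with the deposited value table, 1 without the filter on dim probes, 1 with the slide as a fixed block, and 1 to 3 with an array left out. All genes numbered 5921 with the value table, 4716 without the filter and 3084 with the slide as a fixed block, against 5917, and 3740 to 6070 with an array left out. Whether the replicate numbers pair the samples was not settled. With group means removed, same-numbered arrays of different groups on different slides correlated at -0.003 to 0.329, with a median of 0.068. Differently numbered ones on different slides correlated at -0.443 to 0.380, with a median of -0.132. Same-numbered arrays on the same slide correlated at 0.181 to 0.590, where number and slide cannot be told apart. With the replicate block 5 members passed in females, where all genes numbered 7730 against 5917. Between the sexes after dexamethasone 1 member passed with it, where all genes numbered 850 against 562.

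For the female minus male effect no member passed with any array left out (0 to 0), and all genes numbered 28 with normexp, 0 without the filter, 4 with probes above background on all arrays, 4 with scan day and 0 to 5 with an array left out, against 7. Between the sexes after vehicle 1 member passed, 2 with normexp and 2 with the slide as a random block, 0 with the value table, without the filter, with the slide as a fixed block, with flagged spots kept (which makes the brighter probe stand for Slco1a4) and with 2 groups alone, and 0 to 1 with an array left out. All genes numbered 252 with the slide fixed, 654 with it random, 699 with scan day, 165 with 2 groups alone and 261 to 403 with an array left out, against 415. They numbered 457 with normexp, 486 with the value table, 296 without the filter and 412 with flagged spots kept. After dexamethasone 0 passed, 1 with the slide random and 1 with flagged spots kept, 0 to 0 with an array left out. All genes numbered 920 with the slide random, 562 with flagged spots kept, and 297 to 628 with an array left out. Normexp moved the median of all genes to -0.11 in females and in the female minus male effect.

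Signs turned only among estimates that had not passed. In females Abcc2 was 0.10 with the slide fixed, and Abcg2 was 0.54 with it fixed, 0.14 random and 0.74 with scan day. For the female minus male effect Slc22a7 was 0.0389 with quantile scaling, 0.25 slide fixed, 0.0605 random and 0.18 scan day, Abcb1a -0.18 with normexp and -0.28 scan day, Abcc2 0.0144 slide fixed, Abcg2 0.00967 scan day and Slco1a4 -0.29 flags kept. For Abcb1a the sex difference was 0.0404 after vehicle with normexp, and after dexamethasone -0.14 with normexp, -0.54 slide fixed and -0.52 scan day. On the slide that held all groups, Abcc2 was 0.27 and Abcg2 0.38 in females. There the female minus male effect was 0.27 for Abcc2 and 0.0432 for Slc22a7, and the Abcb1a sex difference after dexamethasone was -0.75. On the other slide with both male groups Slco1a1 was 0.0557. With an array left out Abcg2 ran from -0.0210 to 0.86 in males and -0.29 to 0.18 in females. The female minus male effect of Slc22a7 ran from -0.29 to 0.0141 and of Abcc3 from -0.63 to 0.0138. The sex difference after dexamethasone ran from -0.14 to 0.31 for Abcc2, -0.10 to 0.21 for Slc22a7, -0.0628 to 0.15 for Slco1a1 and -0.0579 to 0.48 for Abcg2. Apart from those whose construction shows it, the cause was not tested.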
